A study of Homo sapiens with 40 samples.

Results

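Nonsense-mediated decay (NMD) removes mRNAs on which a ribosome stops at a codon that the cell reads as premature. The 9 mRNAs described here encode its core factors, and they were taken by gene symbol (UPF1, UPF2, UPF3A, UPF3B, SMG1, SMG5, SMG6, SMG8 and SMG9) from count tables of 55765 symbols, so they make up 9 of 55765. All 9 were measured in each of 40 RNA-Seq libraries from HEK293, an established human embryonic kidney cell line, and all 9 passed the filter on low counts in every comparison.

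The libraries formed 3 experiments and 12 groups. RNA immunoprecipitation and sequencing (RIP-Seq) used antibodies to the endogenous RNA helicases eIF4A1, eIF4A2 and DDX6, with total RNA as reference (n = 3 each). Sucrose gradients separated cytoplasmic lysates of cells transfected with control siRNA or CNOT1 siRNA (30 nM, harvested after 48 h) into a subpolysomal pool (fractions 1 to 5), with few or no ribosomes, and a polysomal pool (fractions 6 to 11), and gradient inputs were sequenced too (n = 4 each). Total RNA of cells transfected with control siRNA or with siRNAs to TNRC6A and TNRC6B came from another experiment (n = 2 each). The groups share 1 cell line, each target was depleted with 1 siRNA sequence, and the labels do not say whether replicates were separate cultures, so p-values measure the spread between these samples. The libraries held 15353317 to 46018900 counts, and the 9 mRNAs had 433 to 32333 counts per library. Of 6 HEK293 markers, VIM, NEFL and NEFM were clearly present. KRT18 ranged from 2.72 to 51.0 in counts-per-million units (CPM), with a median of 21.6. KRT8 and ENO2 were low, with medians of 4.24 and 9.25 CPM. Markers of leukocytes (PTPRC), hepatocytes (ALB) and erythroid cells (HBB) stayed at or below 0.4 CPM, and the fibroblast marker COL1A1 lay between 1.14 and 18.1 CPM.

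In NMD, UPF1 is the RNA helicase that is recruited to the terminating ribosome. UPF2 binds UPF1 and, through UPF3B or its paralogue UPF3A, links it to exon junction complexes left downstream of a stop codon. The kinase SMG1, held in check by SMG8 and SMG9, phosphorylates UPF1. Phosphorylated UPF1 is then bound by SMG5, an adaptor that brings in deadenylation and decapping, and by SMG6, the endonuclease that cuts the target. Several of these mRNAs are known to be NMD targets themselves. The study asked which mRNAs eIF4A2, DDX6 and eIF4A1 bind, and how CNOT1, the scaffold of the Ccr4-Not deadenylase complex, affects their distribution on polysomes.

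The 2 UPF3 paralogues carry among the most purine-rich coding sequences of the mRNAs tested, and purine motifs were among the sequence features that the study examined in bound mRNAs. The study also looked at the end of the 5′UTR, next to the start codon, which was not measured on its own here. The motifs were the 8 tetramers AAGA and AGAA, then GAAA and GAGA, then AGAG and GGAA, then AAAA and GAAG, counted without overlap and on the mRNA strand alone. The windows shown first are the 30 coding nucleotides, within 1 exon, with most bases in these tetramers, given 5′ to 3′ as DNA with such bases in capitals, for the 2 paralogues and for UPF2, their binding partner. SMG5, which was higher in the immunoprecipitates (IPs), and SMG8, which was lower in them, follow for comparison.
UPF3A: GGAAGAGGAAAAAAGAAGAAGAAGAGAAGA
UPF3B: GAAAGAAGAAGAGAAAcGAAAAAGGAAAGA
UPF2: AAGAAAAAAGAAGAGGAAGAAAAAAAGAAA
SMG5: ccAGAGtccaaGGAAcctgtgGAGAAAGAG
SMG8: tggtcaagtAGAAGtGAAAActGAGAAGAG
On GRCh37 the UPF3A window lies at chr13:115057171-115057200, plus strand, the UPF3B window at chrX:118975109-118975138, minus strand, and the UPF2 window at chr10:12077135-12077164, minus strand. The SMG5 window lies at chr1:156236137-156236166, minus strand, and the SMG8 window at chr17:57290353-57290382, plus strand. All 30 bases were in tetramers in UPF3A and UPF2, and 29 in UPF3B. Only 0.591% of 12854 expressed coding genes had a coding window with 30 such bases, and 1.48% had one with at least 29. SMG5 with 17 and SMG8 with 18 bases were close to the median gene (18), since 65.8% and 57.9% of genes reached as many.

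Over the whole coding sequence, UPF3B had 8.20 tetramers per 100 nt (percentile 99.9), UPF3A 6.71 (percentile 99.3) and UPF2 5.81 (percentile 97.5), against a median of 2.98 over all genes. The other 6 mRNAs lay between 2.01 (UPF1) and 3.50 (SMG1). In the 5′UTR the order was different. SMG8 had 5.30 per 100 nt of 5′UTR (percentile 96.5), the remaining mRNAs had 2.56 or fewer, and UPF3B had none in its 35 nt. UPF2 stood apart in another way, with 13 AUG triplets in a 5′UTR of 474 nt (percentile 98.2) that was only 32.3% G or C. No member had an exon junction over 50 nt after its stop codon. Nearly all genes shared this, since 0 lay at percentile 49.7 with ties split evenly above and below. These features describe the longest coding transcript of each gene in GENCODE release 44, which was the MANE Select transcript for 6 of the 9. It was not for UPF1, UPF2 and SMG8, so the 5′UTR values of UPF2 and SMG8 rest on that choice of transcript.

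**Figure D1:**
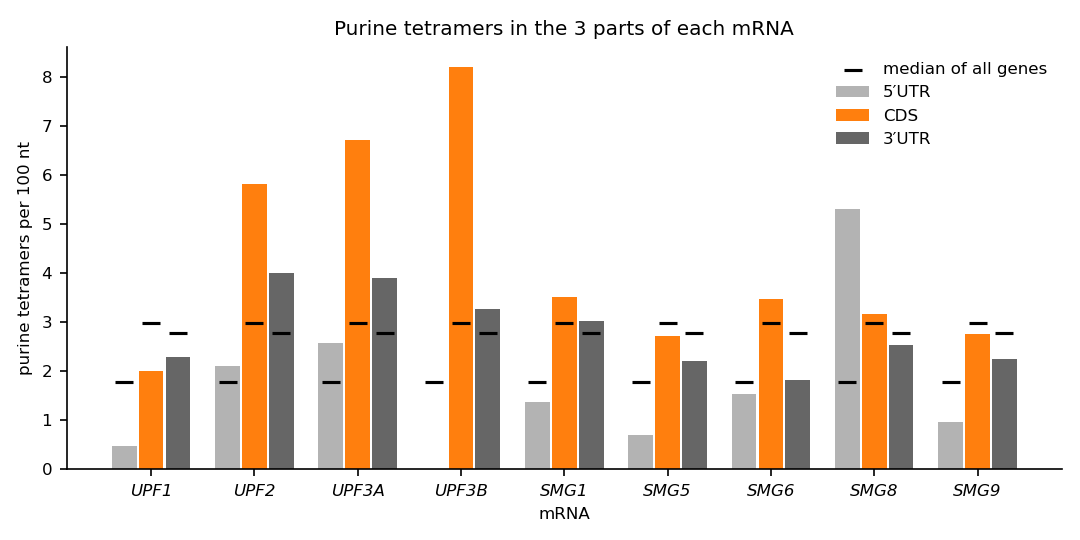
Purine tetramers per 100 nt (y axis) in the 5′UTR, coding sequence (CDS) and 3′UTR of each mRNA (x axis), with a black dash at the median of all expressed coding genes for that part of the mRNA. The CDS bars of UPF2, UPF3A and UPF3B (5.81, 6.71 and 8.20) rise above the median of 2.98, and SMG8 alone among the 9 has a tall 5′UTR bar (5.30).

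Per length, SMG5 was the most abundant of the 9 mRNAs in every one of the 12 groups. Levels between genes are compared as CPM (library sizes scaled by the trimmed mean of M values, TMM, within each experiment) divided by transcript length in kb. In RIP total RNA SMG5 stood at 66.5 ± 7.19 CPM per kb (SD, n = 3), clear of UPF1 at 46.0 ± 9.10. UPF1, UPF3B (35.8 ± 2.72), SMG1 (30.2 ± 4.74) and UPF3A (29.98 ± 1.03) overlapped each other from one to the next in that order. SMG8 (14.5 ± 1.14) was separate from both neighbours, and UPF2 (9.71 ± 0.27), SMG9 (9.18 ± 0.78) and SMG6 (8.38 ± 0.34) overlapped at the bottom. The control siRNA input gave nearly the same order, from SMG5 at 59.8 ± 4.05 (SD, n = 4) to SMG6 at 8.40 ± 0.35 and SMG9 at 6.57 ± 0.63 CPM per kb. With the union of all annotated exons as length, SMG5 was again first in all 12 groups, while UPF3B came before UPF1 in both sets.

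The identity of some reads is limited by neighbours and copies. SMG1 (chr16:18816182-18937730, GRCh37) has pseudogene copies, of which only the row of SMG1P1 was examined. It held 1 to 33 counts per library, and 3 UPF3A pseudogene rows held 0 to 6. Low counts there cannot tell whether reads of the copies were counted under the parent gene or left out. SMG6 (chr17:1963133-2207079) shares 22.9% of its exon bases with HIC1 on the opposite strand, and the strand setting of the counting is not given in the sources used here. SMG8 (chr17:57286761-57292600) shares 11.3% with an unnamed gene on the same strand. The remaining genes lie at chr19:18942768-18979039 (UPF1), chr10:11962021-12085169 (UPF2), chr13:115047076-115071292 (UPF3A), chrX:118967985-118986961 (UPF3B), chr1:156219015-156252616 (SMG5) and chr19:44232135-44259114 (SMG9).

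The comparisons ask which of the mRNAs were recovered with each helicase, how CNOT1 siRNA changed them in input and in each pool, how they were spread over the gradient, and how TNRC6A/B siRNA changed them. A gene was called at a false discovery rate (FDR, Benjamini-Hochberg over all genes tested) below 0.05 in edgeR's quasi-likelihood test. Values are given in replicate order. In bulk RNA, fewer cells and less RNA per cell cannot be told apart, and every level is relative to the other RNAs of its library.

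In the IPs, SMG5 rose and SMG8 and UPF3B fell with all 3 helicases, while the mRNAs of UPF1, UPF2 and SMG6 were called in none. Members called numbered 3 of 9 in the eIF4A1 IP (1 higher, 2 lower), 4 of 9 in the eIF4A2 IP (1 higher, 3 lower) and 4 of 9 in the DDX6 IP (1 higher, 3 lower). Over the 17474 genes tested, 52.6% were called with eIF4A1 (26.1% higher, 26.5% lower), 50.3% with eIF4A2 (24.5% higher, 25.8% lower) and 46% with DDX6 (22.7% higher, 23.3% lower), so the members' shares were near the background. Their median log2 fold changes were -0.20, -0.12 and -0.23, beside 0.04, 0.01 and 0.01 over all genes. The 3 comparisons share the same total RNA libraries. No library of an IP with control IgG is among the 12 groups, so recovery that any IP would give was not tested.

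The adaptor SMG5 had 290.2, 340.2 and 278 CPM in total RNA. It had 647, 694 and 613 CPM in the eIF4A1 IP, 520.4, 673 and 575 in the eIF4A2 IP and 526, 616 and 548 in the DDX6 IP. Every IP library was above every total RNA library. The log2 fold changes were 1.10 ± 0.15 (SE), FDR = 4.93e-05 with eIF4A1, 0.96 ± 0.15 (SE), FDR = 0.000139 with eIF4A2, and 0.90 ± 0.15 (SE), FDR = 0.000347 with DDX6, which are 2.15-fold, 1.95-fold and 1.86-fold. SMG6, the other effector bound by phosphorylated UPF1, had 49.6, 52.3 and 48.4 CPM in total RNA and 31.8 to 62.9 CPM over the 9 IP libraries. Its log2 changes of 0.14, -0.12 and 0.18 were within the spread between replicates.

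SMG8, a regulatory subunit of the SMG1 kinase, had 47.0, 54.7 and 49.4 CPM in total RNA. It dropped to 25.5, 22.1 and 26.5 CPM in the eIF4A1 IP, 28.6, 24.2 and 29.4 in the eIF4A2 IP and 28.0, 24.5 and 27.1 in the DDX6 IP. No IP library reached the lowest total RNA library, and the replicates lay close together. The log2 changes were -1.03 ± 0.13 (SE), FDR = 3.14e-05 with eIF4A1, -0.88 ± 0.13 (SE), FDR = 0.0001 with eIF4A2, and -0.93 ± 0.13 (SE), FDR = 0.000114 with DDX6. SMG9, its partner subunit, had 54.3, 51.2 and 45.8 CPM in total RNA, 45.8, 40.1 and 37.2 in the eIF4A1 IP, 39.2, 35.9 and 31.3 in the eIF4A2 IP and 37.3, 35.7 and 28.4 in the DDX6 IP. It fell in the eIF4A2 IP (-0.51 ± 0.15 (SE), FDR = 0.0102) and in the DDX6 IP (-0.58 ± 0.15 (SE), FDR = 0.00577). In the eIF4A1 IP, where the groups overlapped, the change was -0.30 ± 0.15 (SE), FDR = 0.101, and with the replicate number as a block it passed the threshold (-0.29, FDR = 0.0104).

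The kinase SMG1 itself was called in no IP against total RNA. Its levels were 417, 471 and 568 CPM in total RNA, 524, 323 and 426 in the eIF4A1 IP, 654, 544 and 636 in the eIF4A2 IP and 416, 313 and 415 in the DDX6 IP. The eIF4A2 IP libraries were above all libraries of both other IPs, and the DDX6 IP libraries were below all total RNA libraries. The log2 values against total RNA were -0.20 ± 0.19, 0.33 ± 0.19 and -0.35 ± 0.19 (SE). With the replicate block, the DDX6 value passed the threshold (-0.36, FDR = 0.0485).

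UPF3B fell in all 3 IPs, and its paralogue UPF3A did not. UPF3B had 87.3, 87.6 and 76.4 CPM in total RNA, 23.8, 43.6 and 43.1 in the eIF4A1 IP, 47.2, 40.7 and 18.6 in the eIF4A2 IP and 57.1, 40.3 and 33.7 in the DDX6 IP. The highest IP library was thus below the lowest total RNA library. The log2 changes were -1.18 ± 0.31 (SE), FDR = 0.0063 with eIF4A1, -1.24 ± 0.31 (SE), FDR = 0.00495 with eIF4A2, and -0.94 ± 0.31 (SE), FDR = 0.0246 with DDX6. The DDX6 call was lost, at FDR = 0.0622 to 0.0891, without replicate 1 or 2 of total RNA or without replicate 2 or 3 of the DDX6 IP, with log2 changes of -0.91 to -0.78.

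UPF3A had 73.6, 68.7 and 71.0 CPM in total RNA, 82.1, 114 and 95.4 in the eIF4A1 IP, 116, 111 and 55.2 in the eIF4A2 IP and 114, 98.7 and 82.5 in the DDX6 IP. All IP libraries but eIF4A2 replicate 3 were above total RNA. Its log2 changes, 0.45 ± 0.23, 0.40 ± 0.23 and 0.47 ± 0.23 (SE), were not called (FDR = 0.121, 0.168 and 0.115). It was called higher with eIF4A1 and DDX6 with no filter (FDR = 0.031 and 0.0265) and with the compared libraries alone in the fit (FDR = 0.0273 and 0.0155). Without eIF4A2 IP replicate 3 the eIF4A2 value was 0.68, FDR = 0.0056. The ratio of UPF3A to UPF3B CPM within a library was 0.784 to 0.929 in total RNA. It was 2.21 to 3.45 in the eIF4A1 IP, 2.46 to 2.96 in the eIF4A2 IP and 2.00 to 2.45 in the DDX6 IP. Within the RIP experiment UPF3B had the higher CPM in every total RNA library and UPF3A in every IP library. Per kb of exon union, mean UPF3A was 16.9 against 14.6 for UPF3B in the eIF4A1 IP and 16.3 against 14.0 in the eIF4A2 IP. In the DDX6 IP it was 17.1 against 17.3, so the more abundant paralogue there depended on the length used. Both have percentiles of 99.3 or more for coding purine tetramers.

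The helicase UPF1 showed no detectable change, with 262, 281 and 189.6 CPM in total RNA and 181 to 283 CPM over the 9 IP libraries. Its 95% intervals for the log2 change were -0.41 to 0.34 with eIF4A1, -0.47 to 0.27 with eIF4A2 and -0.60 to 0.15 with DDX6. UPF2 had 54.9, 55.0 and 52.3 CPM in total RNA, 32.8, 44.1 and 55.5 in the eIF4A1 IP, 61.8, 53.2 and 34.0 in the eIF4A2 IP and 78.8, 52.6 and 67.4 in the DDX6 IP. Its IP replicates were widely spread around the total RNA values, and log2 changes were -0.29, -0.12 and 0.29. The library eIF4A2 IP replicate 3 had the lowest IP level of UPF3A, UPF3B and SMG6, whereas SMG1, SMG5 and SMG8 in it lay within or above the range of its 2 companions.

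**Figure D2:**
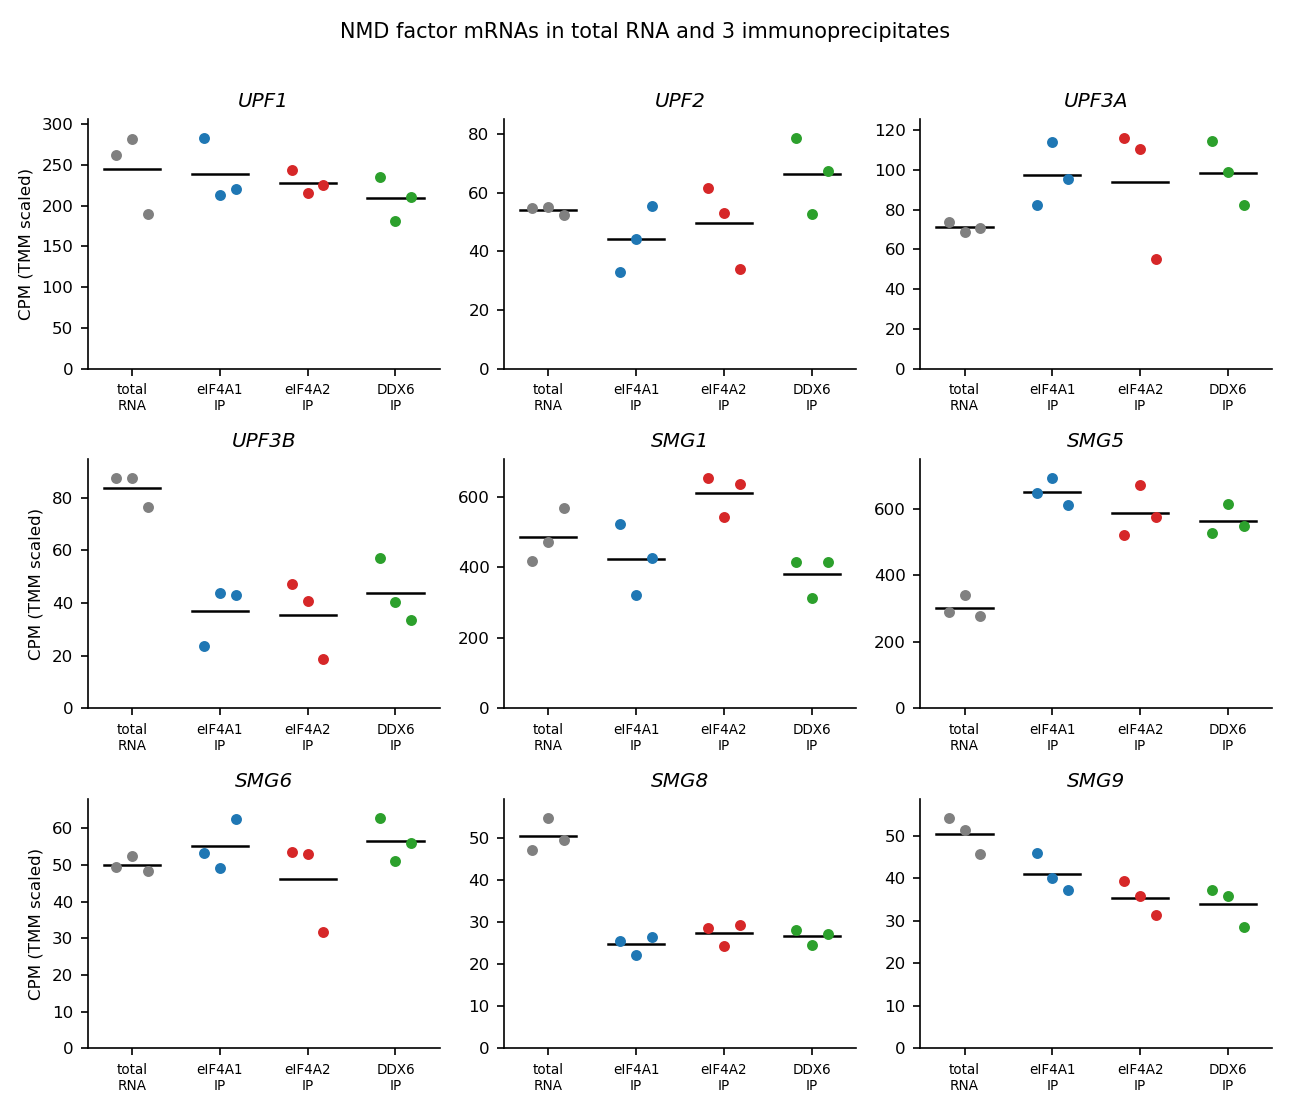
Level of each mRNA in CPM (y axis) in the 3 libraries of total RNA and of each IP (x axis); points are libraries and black bars are means. SMG5 rises from 278 to 340 CPM in total RNA to 520.4 to 694 CPM in the IPs, while SMG8 and UPF3B drop in every IP library.

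**Figure D3:**
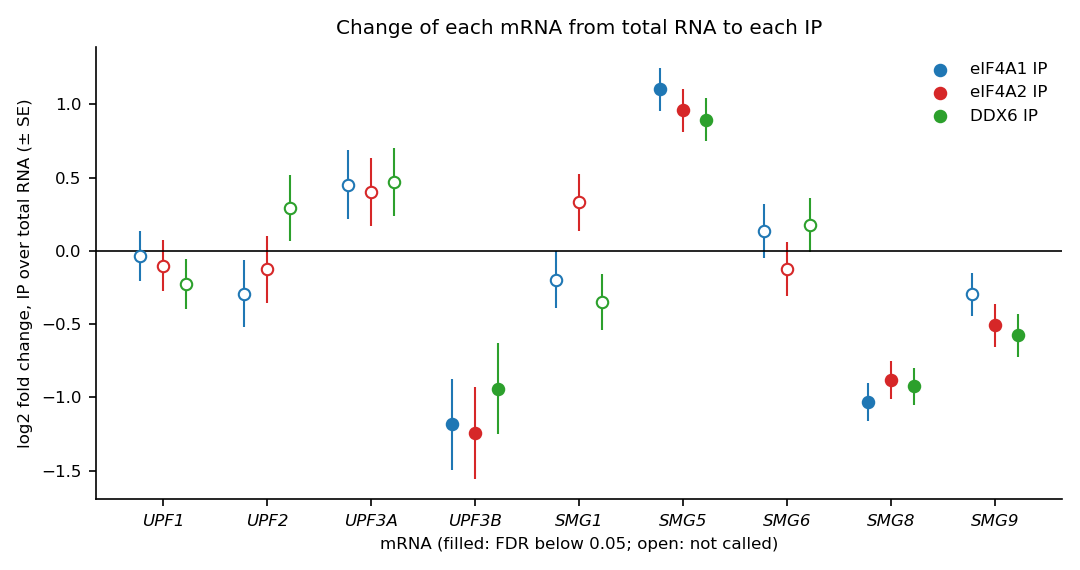
Log2 fold change of each mRNA (x axis) from total RNA to each IP (y axis), with the standard error (n = 3 per group). Filled points passed FDR below 0.05; SMG5 is near 1 in all 3 IPs, and UPF3B and SMG8 are near -1.

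Compared with each other, the IPs differed in SMG1. It was higher in the eIF4A2 IP than in the DDX6 IP, by 0.68 ± 0.19 (SE), FDR = 0.0266, or 1.60-fold, and it was the 1 member of 9 called, where 21.1% of all genes were (9.82% higher, 11.3% lower). That call was lost without replicate 1 or 3 of the eIF4A2 IP or replicate 2 of the DDX6 IP, at FDR = 0.0895, 0.0645 and 0.111, with log2 values of 0.63, 0.65 and 0.55. Against the eIF4A1 IP, SMG1 in the eIF4A2 IP was 0.53 ± 0.19 (SE), FDR = 0.197, and with the replicate block 0.54, FDR = 0.0272. Thus 0 of 9 members were called between eIF4A2 and eIF4A1 by edgeR (1.06% of all genes, 0.973% higher and 0.0858% lower). Of the 9 members, SMG1 alone had an unadjusted p below 0.05 there, beside 3116 of the 17474 genes tested. Between DDX6 and eIF4A1, members called were also 0 of 9 (0.0916% of all genes, 0.0801% higher and 0.0114% lower). Of the 9, UPF2 alone was below that p, beside 2438 of the 17474 genes. DESeq2 called 0 members in both. For SMG5 the 95% intervals of the log2 difference were -0.46 to 0.17 between eIF4A2 and eIF4A1, -0.52 to 0.11 between DDX6 and eIF4A1, and -0.25 to 0.38 between eIF4A2 and DDX6. For SMG8 they were -0.13 to 0.43, -0.17 to 0.38 and -0.23 to 0.32, and for UPF3B -0.72 to 0.61, -0.42 to 0.91 and -0.97 to 0.37.

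Scaling bears on these values. With library totals in place of TMM, the median log2 change of all genes moved by 0.26, 0.32 and 0.15 in the eIF4A1, eIF4A2 and DDX6 IPs, and the share of called genes that were higher went from 49.5% to 67.5%, from 48.7% to 69.6% and from 49.3% to 62.8%. Between the eIF4A2 and DDX6 IPs that share went from 46.6% to 70.1%, with a shift of 0.17 in the median, and between DDX6 and eIF4A1 from 87.5% to 75%, with a shift of -0.11. SMG5, SMG8 and UPF3B kept their direction and their calls. UPF3A then passed the threshold as higher in all 3 IPs, and SMG1 in the eIF4A2 IP (0.64, FDR = 0.0251), while SMG9 was no longer called in the eIF4A2 IP (-0.19, FDR = 0.289).

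Before the gradient results, the siRNA target has to be given. CNOT1 had 687, 711, 662 and 628 CPM in control siRNA input and 41.4, 36.8, 39.9 and 40.4 in CNOT1 siRNA input, a 16.8-fold reduction. In the subpolysomal pool it was 235 to 317 CPM against 73.5 to 89.6. In the polysomal pool the library labelled control siRNA replicate 3 had 28.3 CPM of CNOT1, beside 469.9 to 501 in the other 3. The library labelled CNOT1 siRNA replicate 3 had 631 CPM, beside 24.01 to 31.6 in the other 3. These 2 libraries go against their labels. They were kept as labelled, and members' polysomal results are given with and without them.

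In input RNA, CNOT1 siRNA lowered the mRNAs of SMG1 and UPF3B and raised those of SMG8 and SMG9. That made 4 of 9 members called (2 higher, 2 lower), while 61% of 15686 genes were called, 30.9% higher and 30% lower. The kinase SMG1 had 464, 478, 444 and 454 CPM with control siRNA and 349.6, 319.5, 351 and 315 with CNOT1 siRNA. The groups were far apart, with a log2 change of -0.45 ± 0.05 (SE), FDR = 3.84e-06. UPF3B went from 53.5, 93.3, 78.0 and 89.8 CPM to 46.5, 60.3, 46.7 and 55.5 CPM. One control library, replicate 1, lay inside the CNOT1 siRNA range, and the log2 change was -0.58 ± 0.13 (SE), FDR = 0.00167.

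SMG8 rose from 64.8, 61.6, 59.6 and 65.1 CPM to 86.5, 77.5, 70.4 and 72.1 CPM, without overlap, by 0.30 ± 0.06 (SE), FDR = 0.000757. SMG9 had 37.8, 38.2, 37.4 and 30.9 CPM with control siRNA and 40.0, 41.5, 39.1 and 38.8 with CNOT1 siRNA. Its change, 0.16 ± 0.07 (SE), FDR = 0.0497, sat at the threshold, and 7 of 8 fits that left out 1 library did not call it, nor did DESeq2 (0.16, FDR = 0.0551). Without control replicate 4, its lowest control library, it was 0.10, FDR = 0.161. SMG5 lay between 253 and 291 CPM with control siRNA, between 227 and 269.6 after CNOT1 siRNA, and its log2 change of -0.10 was called with the replicate block alone (-0.11, FDR = 0.0284). Without control replicate 1, UPF2 was called lower (-0.20, FDR = 0.0336). With all libraries UPF1, UPF2, UPF3A and SMG6 were not called, with 95% intervals of the log2 change of -0.09 to 0.21, -0.30 to 0.05, -0.17 to 0.07 and -0.15 to 0.07. In 1 fit over all 24 gradient libraries SMG1 and UPF3B were called, and SMG8 was too once the 2 mismatched libraries were left out. With library totals in place of TMM the share of called genes that were higher went from 50.7% to 61%, and SMG1, UPF3B, SMG8 and SMG9 kept their calls.

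In the subpolysomal pool, UPF3A, UPF3B, SMG1 and SMG9 fell with CNOT1 siRNA, and none was called higher in the fit without a replicate block. That is 4 of 9 members, against 27.8% of 15823 genes called (12.6% higher, 15.2% lower). With the replicate number as a block, described below, 7 members were called lower and 1, SMG5, higher. SMG9 had 49.4, 33.4, 59.8 and 54.3 CPM with control siRNA and 28.8, 23.8, 33.2 and 32.1 with CNOT1 siRNA, and it fell by 0.72 ± 0.20 on the log2 scale (SE, FDR = 0.0214). Control replicate 2 lay beside the highest CNOT1 siRNA library, and the other 3 control libraries were above both. SMG1 went from 162, 155, 140.1 and 112 CPM to 107, 91.7, 114 and 83.9 CPM (-0.48 ± 0.14 (SE), FDR = 0.0245). UPF3B went from 59.9, 57.5, 36.7 and 45.6 CPM to 36.4, 39.8, 26.8 and 22.7 CPM (-0.63 ± 0.19 (SE), FDR = 0.0327).

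UPF3A had 80.1, 78.5, 75.0 and 78.1 CPM in control and 64.6, 68.2, 57.9 and 52.7 in CNOT1 siRNA libraries, without overlap (-0.33 ± 0.10 (SE), FDR = 0.0365). The UPF3A call was lost with DESeq2 (FDR = 0.0644), RLE scaling (FDR = 0.063) and no filter (-0.26, FDR = 0.276). SMG5, in contrast, had 274, 217, 331 and 290.0 CPM with control siRNA and 329, 299, 383 and 388 with CNOT1 siRNA, and its log2 value was 0.36 ± 0.16 (SE), FDR = 0.116. It was called with no filter (0.43, FDR = 0.0457) and without control replicate 3 (0.51, FDR = 0.0336). Replicates 1 and 2 differed from 3 and 4 in both siRNA groups, for example in UPF1 (51.2, 39.4, 92.4 and 78.4 CPM with control siRNA, 41.7, 36.7, 60.5 and 56.9 with CNOT1 siRNA). The first 2 were also deeper, with at least 24001172 counts against at most 17709164. The part of depth in these differences was not tested.

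With the replicate number as a block, 8 of 9 members were called in the subpolysomal pool (7 lower, 1 higher), and 56.5% of all genes. SMG5 was then higher (0.37, FDR = 0.000431), and UPF1 (-0.34, FDR = 0.00201), UPF2 (-0.30, FDR = 0.00477) and SMG8 (-0.17, FDR = 0.0444) joined the 4 that fell. Without the block, leaving out any 1 of the 8 libraries left 0 to 2 members called, and 0 without control replicate 1. With library totals the share of all called genes that were higher went from 45.2% to 81.2%, the median of all genes moved by 0.25, and SMG5 was the 1 member called (0.61, FDR = 0.0183). UPF3A, UPF3B, SMG1 and SMG9 then kept their direction without passing the threshold.

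In the polysomal pool 0 of 9 members were called between the siRNAs by edgeR, as were 0 of 14474 genes (0% of all). An unadjusted p under 0.05 was found for 99 genes and 0 members, and DESeq2 also called 0. Without the 2 libraries that go against their labels, 40.6% of genes and 4 members were called. SMG8 (0.34, FDR = 0.00748) and SMG9 (0.39, FDR = 0.0303) were then higher with CNOT1 siRNA, and UPF3B (-0.50, FDR = 0.0037) and SMG1 (-0.35, FDR = 0.0174) were lower. The same 4 mRNAs were called in the same directions in input RNA, where 61% of all genes were called. The share of all genes called in both was not computed, and the paper took input RNA from aliquots of the gradient lysates. For SMG8 the polysomal levels were 50.1, 49.0, 67.3 and 52.8 CPM with control siRNA and 66.3, 65.5, 52.5 and 61.8 with CNOT1 siRNA, so replicate 3 was the highest library of the first group and the lowest of the second.

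**Figure D4:**
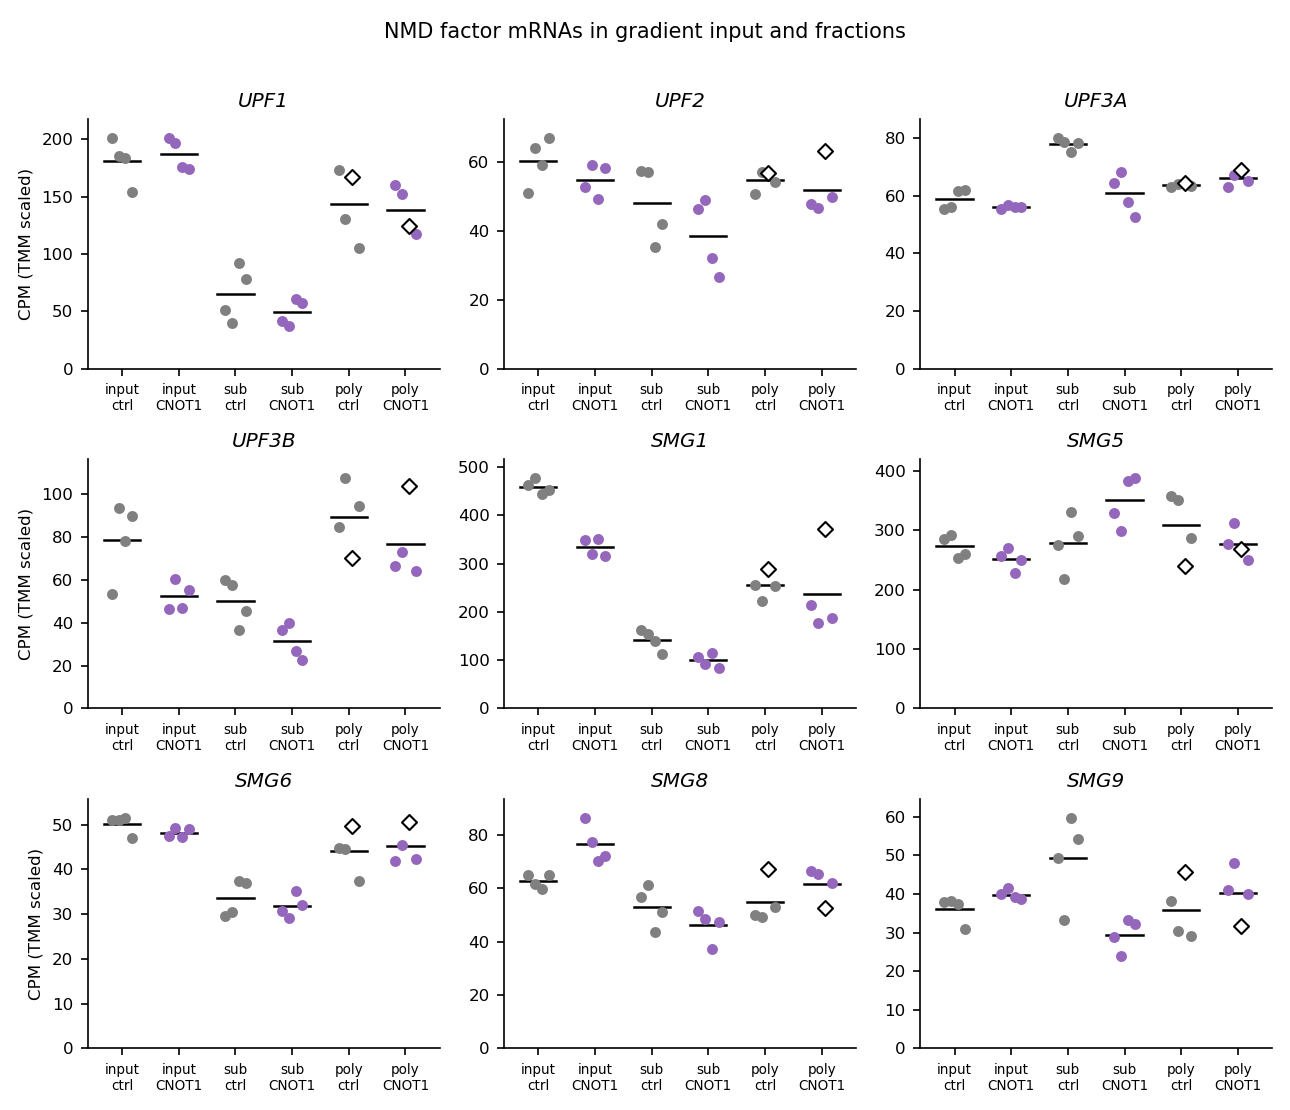
Level of each mRNA in CPM (y axis) in gradient input, subpolysomal (sub) and polysomal (poly) RNA after control (grey) or CNOT1 (purple) siRNA (x axis, n = 4 each); points are libraries, bars are means over all 4, and white diamonds are the 2 polysomal libraries of replicate 3 that go against their labels. SMG1 is lower with CNOT1 siRNA in every input library, and SMG9 falls from 33.4 to 59.8 CPM to 23.8 to 33.2 CPM in the subpolysomal pool.

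Within control cells, UPF1, UPF3B, SMG1 and SMG6 mRNAs were higher in the polysomal than in the subpolysomal pool, and UPF3A and SMG9 were lower. That made 6 of 9 called (4 higher, 2 lower), where 68% of 16506 genes were called, 32.7% higher and 35.3% lower. UPF1 had the greatest polysomal excess of the 9. It had 51.2, 39.4, 92.4 and 78.4 CPM in the subpolysomal and 173, 130.3, 167 and 105 in the polysomal pool, a log2 change of 1.13 ± 0.24 (SE), FDR = 0.000351, or 2.19-fold. SMG1 went from 162, 155, 140.1 and 112 CPM to 256, 224, 289 and 253 (0.84 ± 0.20 (SE), FDR = 0.000989), and UPF3B from 59.9, 57.5, 36.7 and 45.6 CPM to 84.8, 108, 70.3 and 94.3 (0.83 ± 0.21 (SE), FDR = 0.00155). In these 3 mRNAs every polysomal library was above every subpolysomal one. SMG6 rose by 0.39 ± 0.13 (SE), FDR = 0.0123, from 29.6 to 37.3 CPM to 37.5 to 49.8 CPM.

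UPF3A again parted from UPF3B. It had 80.1, 78.5, 75.0 and 78.1 CPM in the subpolysomal pool and 63.1, 64.2, 64.4 and 63.4 CPM in the polysomal pool, without overlap and in the other direction (-0.29 ± 0.11 (SE), FDR = 0.0197). SMG9 had 49.4, 33.4, 59.8 and 54.3 CPM and 38.3, 30.3, 45.7 and 29.1 CPM, with overlap (-0.46 ± 0.19 (SE), FDR = 0.0388). UPF2, SMG5 and SMG8 were spread over both pools, with 95% intervals of the log2 change of -0.21 to 0.58, -0.17 to 0.46 and -0.27 to 0.35. Without the 2 mismatched libraries the same 6 mRNAs were called in the same directions, with UPF1 at 1.07, FDR = 0.00135, UPF3B at 0.94, FDR = 0.000279, SMG1 at 0.79, FDR = 7.67e-05, SMG6 at 0.34, FDR = 0.0169, UPF3A at -0.29, FDR = 0.0171, and SMG9 at -0.59, FDR = 0.00785. The SMG9 call was lost in 5 of 8 fits that left out 1 library, with FDR up to 0.137, and the UPF3A call in 3 of 8, with FDR up to 0.0696. With no filter on low counts neither was called lower (UPF3A -0.18, FDR = 0.437, SMG9 -0.36, FDR = 0.106).

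In CNOT1 siRNA cells 6 of 9 mRNAs were higher in the polysomal pool and none was called lower, where 64.3% of genes were called (31.7% higher, 32.5% lower). UPF1 (2.83-fold, FDR = 2.71e-05), UPF3B (1.28 ± 0.21 (SE), FDR = 3.24e-05), SMG1 (1.26 ± 0.20 (SE), FDR = 2.51e-05) and SMG6 (0.51 ± 0.13 (SE), FDR = 0.00238) had been higher in control cells too. SMG8 (0.41 ± 0.15 (SE), FDR = 0.0192) and SMG9 (0.45 ± 0.19 (SE), FDR = 0.0476) were added, and UPF3A, at 0.12, was not called. Without the 2 mismatched libraries the same 6 were called, UPF1 at 1.56, FDR = 4.78e-05, UPF3B at 1.12, FDR = 6.25e-05, SMG1 at 0.97, FDR = 1.01e-05, SMG6 at 0.46, FDR = 0.00275, SMG8 at 0.49, FDR = 0.00255, and SMG9 at 0.56, FDR = 0.00984. With all libraries the SMG9 call was lost in 6 of 8 fits that left out 1 library (FDR up to 0.136), and the SMG8 call without CNOT1 siRNA subpolysomal replicate 3 (FDR = 0.066). With library totals the share of called genes that were higher went from 49.4% to 34%, the median of all genes moved by -0.30, SMG6, SMG8 and SMG9 were no longer called, and SMG5 was called lower (-0.65, FDR = 0.00193). SMG5, not called as reported (-0.34 ± 0.15 (SE), FDR = 0.0575), was also called lower with RLE scaling (-0.38, FDR = 0.0391), in the fit over 24 libraries (-0.34, FDR = 0.0244) and without CNOT1 siRNA subpolysomal replicate 2 (-0.40, FDR = 0.0396). UPF2 (0.43 ± 0.19 (SE), FDR = 0.0563) was called higher with no filter (0.42, FDR = 0.0437), in the fit over 24 libraries (0.43, FDR = 0.0261) and without CNOT1 siRNA subpolysomal replicate 1 or 2 (FDR = 0.0337 and 0.0194). With the replicate block UPF2 was called higher too, and 7 members were higher in place of 6. SMG9 missed the threshold with DESeq2 (0.42, FDR = 0.0517) and RLE scaling (0.40, FDR = 0.0551).

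The difference between these 2 contrasts was tested directly as an interaction, and 0 of 9 members passed it (0.951% of 16506 genes, 0.576% higher and 0.376% lower). An unadjusted p below 0.05 was found for 3 members and for 2491 of the 16506 genes. SMG9 had the largest value, 0.91 ± 0.27 (SE), FDR = 0.114, with an unadjusted p of 0.00327. Its log2 polysomal over subpolysomal ratios were -0.37, -0.14, -0.39 and -0.90 in control cells and 0.51, 1.01, -0.07 and 0.32 in CNOT1 siRNA cells. All 4 control ratios were below 0, and 3 of 4 ratios after CNOT1 siRNA were above it, the exception being replicate 3, which holds a mismatched library. Without the 2 mismatched libraries the interaction of SMG9 was called (1.14, FDR = 0.0106), and DESeq2 called it with all libraries (0.87, FDR = 0.0341). It was also called without the library labelled control siRNA polysomal replicate 3 alone (1.04, FDR = 0.0316) and in the fit over 24 libraries (0.90, FDR = 0.0212).

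UPF3A (0.41 ± 0.15, SE, FDR = 0.199) and SMG5 (-0.48 ± 0.21, FDR = 0.286) were the other 2 at an unadjusted p below 0.05, in opposite directions. UPF3A had log2 ratios of -0.34, -0.29, -0.22 and -0.30 in control cells and -0.03, -0.02, 0.25 and 0.31 after CNOT1 siRNA, so the groups did not overlap, and the fit over 24 libraries called it (0.41, FDR = 0.0433). SMG8 had -0.18, -0.32, 0.63 and 0.05 in control cells and 0.37, 0.43, 0.50 and 0.38 after CNOT1 siRNA, and was at 0.37 ± 0.21 (SE), FDR = 0.404. Without the 2 mismatched libraries UPF3A (0.39, FDR = 0.0883), SMG5 (-0.57, FDR = 0.0872) and SMG8 (0.55, FDR = 0.0643) again missed the threshold. With library totals 5.15% of genes were called and 6.12% of those were higher, instead of 60.5%, and the median of all genes moved by -0.26. No member was called under that scaling.

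**Figure D5:**
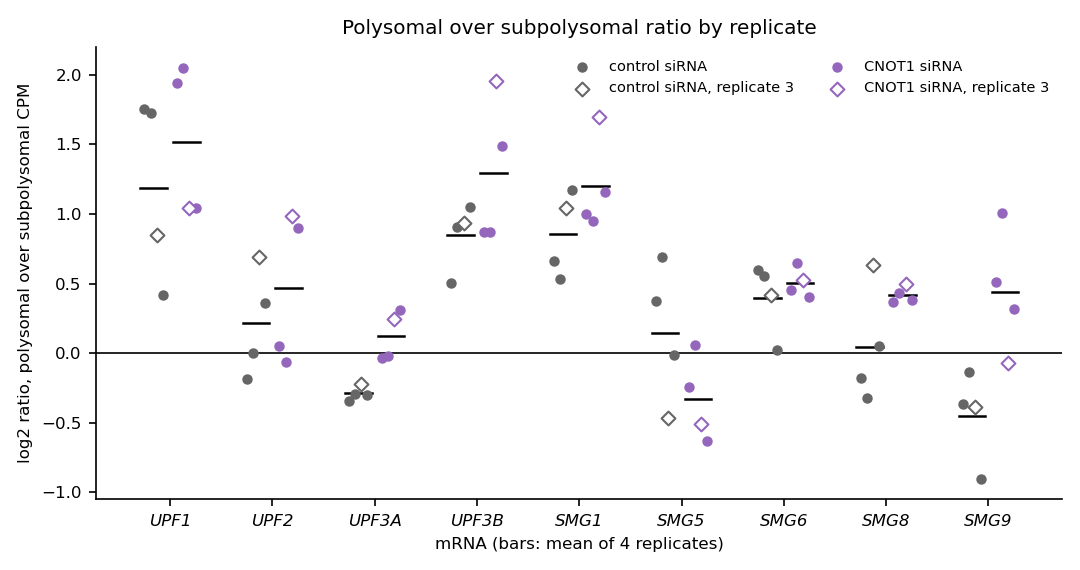
Log2 ratio of polysomal to subpolysomal CPM (y axis) for each mRNA (x axis) by replicate, after control (grey) and CNOT1 (purple) siRNA; bars are means of 4 and open diamonds are replicate 3, whose polysomal libraries go against their labels. UPF1, UPF3B, SMG1 and SMG6 are above 0 in all 8 replicates, and SMG9 is below 0 in all 4 control replicates.

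After TNRC6A/B siRNA, no NMD factor mRNA changed detectably. TNRC6A and TNRC6B encode GW182 proteins, which link Argonaute to Ccr4-Not. TNRC6A itself was at 178 and 189 CPM with control siRNA and 40.5 and 64.7 with TNRC6A/B siRNA, while TNRC6B was at 67.6 and 73.1 CPM with the first and 17.7 and 26.3 with the second. By edgeR 0 of 9 members and 0 of 14064 genes (0%) were called, 289 genes and 0 members had an unadjusted p under 0.05, and by DESeq2 the counts were 0 members and 1 gene. The replicates were far apart in UPF1, at 203 and 76.7 CPM with control and 210.4 and 118 with TNRC6A/B siRNA, and in SMG5, at 382 and 182 CPM with control and 307 and 212 with TNRC6A/B siRNA. UPF3B had 62.2 and 67.2 CPM with control and 60.6 and 58.0 with TNRC6A/B siRNA (-0.13 ± 0.20 (SE), FDR = 1.0). Intervals were correspondingly wide, -1.19 to 1.64 for UPF1 and -1.20 to 0.96 for SMG5 on the log2 scale. They were narrower for UPF2 (-0.53 to 0.56), UPF3B (-0.66 to 0.40) and SMG1 (-0.42 to 0.65).

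The rest of the pathway gives a setting for the 9. Of 20 other NMD and exon junction complex factors, 10, 11 and 8 were lower and 1, 1 and 2 higher in the eIF4A1, eIF4A2 and DDX6 IPs, with median log2 changes of -0.50, -0.75 and -0.31. Over all genes 26.5%, 25.8% and 23.3% were lower and 26.1%, 24.5% and 22.7% higher, with medians of 0.04, 0.01 and 0.01. With library totals 8, 8 and 7 were lower and 3, 3 and 5 higher, and with the replicate block 16 in place of 10 were called with DDX6 (5 higher, 11 lower). RUVBL1 and RUVBL2, AAA+ ATPases that act with SMG1, were the lowest, at -2.15 ± 0.30 (SE), FDR = 7.12e-05 for RUVBL2 and -1.78 ± 0.14 (SE), FDR = 1.03e-06 for RUVBL1 with eIF4A2. In input RNA with CNOT1 siRNA 8 of the 20 were higher and 6 lower (30.9% and 30% of all genes), among them the cap-binding subunit NCBP2 (-0.95 ± 0.06 (SE), FDR = 1.26e-08) and WIBG, which encodes the exon junction complex disassembly factor PYM1 (0.79 ± 0.07 (SE), FDR = 1.06e-07). In control cells 10 of the 20 were higher and 3 lower in the polysomal pool (32.7% and 35.3% of all genes), led by RUVBL1 (1.91 ± 0.13 (SE), FDR = 6.30e-10) and the exon junction helicase EIF4A3 (1.88 ± 0.15 (SE), FDR = 5.61e-09). Without the 2 mismatched libraries these counts were again 10 and 3. After CNOT1 siRNA they were 8 and 2 (31.7% and 32.5% of all genes), and 12 and 2 without those libraries. Between the siRNAs in the polysomal pool 0 of the 20 were called, and 5 higher and 6 lower without those libraries, where 40.6% of all genes were called. Between the eIF4A2 and DDX6 IPs 1 was higher and 6 lower (9.82% and 11.3% of all genes), between the other pairs of IPs 0 were called, and in the subpolysomal pool CNOT1 siRNA gave 4 higher and 4 lower (12.6% and 15.2% of all genes). Of the 20, 0 were called with TNRC6A/B siRNA.

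Of 14 transcripts often used as readouts of NMD, 8, 4 and 9 were higher and 1 in each lower in the eIF4A1, eIF4A2 and DDX6 IPs, where 26.1%, 24.5% and 22.7% of all genes were higher and 26.5%, 25.8% and 23.3% lower. The list holds the mRNAs of GADD45A, GADD45B, ATF3, ATF4, DDIT3, TBL2, UPP1 and BAG1. It also holds the snoRNA host transcripts GAS5, ZFAS1, SNHG1, SNHG12 and SNHG15 and the pseudogene RP9P. The medians below are thus over coding and noncoding transcripts together. Median log2 changes of the 14 were 0.69, 0.39 and 0.83, and those higher included the stress-response factor ATF4 with eIF4A1 (1.51 ± 0.20 (SE), FDR = 5.32e-05) and DDX6 (1.44 ± 0.20 (SE), FDR = 0.000122). With the replicate block 9 in place of 5 were called with eIF4A2 (8 higher, 1 lower). Between the eIF4A2 and DDX6 IPs 1 was higher and 4 lower (9.82% and 11.3% of all genes), and 1 and 1 with library totals. In control cells 10 of the 14, and 11 without the mismatched libraries, were lower in the polysomal pool and none higher (35.3% and 32.7% of all genes), with a median log2 change of -1.48 beside -0.03 over all genes. The snoRNA host transcripts SNHG12 (-4.10 ± 0.20 (SE), FDR = 3.12e-11) and GAS5 (-3.67 ± 0.21 (SE), FDR = 1.51e-10) were furthest. After CNOT1 siRNA 11 of the 14 were lower there and none higher (32.5% and 31.7% of all genes), and between the siRNAs 0 were called in the polysomal pool, with 2 higher and 8 lower once the mismatched libraries were left out (40.6% of all genes called). With CNOT1 siRNA 2 of the 14 were higher and 6 lower in input RNA (30.9% and 30% of all genes), where ZFAS1 fell (-1.003 ± 0.13 (SE), FDR = 9.75e-06) and DDIT3 rose (0.92 ± 0.22 (SE), FDR = 0.00205). In the subpolysomal pool 5 of the 14 were lower and 0 higher (15.2% and 12.6% of all genes), with GAS5 at -0.80 ± 0.12 (SE), FDR = 0.00183, and with the block 9 were lower and 1 higher. Of the 14, 0 were called in the interaction or with TNRC6A/B siRNA.

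Across the 12 group means, centred within each experiment, UPF1 and SMG1 had the most similar profiles of any 2 members (Pearson r = 0.92) and SMG5 and SMG8 the most opposed (r = -0.94). These are descriptions over 12 groups that share the centring of their experiment, and the polysomal means include the 2 libraries that go against their labels. Among 13640 other genes, the closest profile was WDR44 for UPF1 (r = 0.99), EIF4G3 for UPF2 (0.94), LYSMD1 for UPF3A (0.95) and HADH for UPF3B (0.99). It was MTR for SMG1 (0.98), STX3 for SMG5 (0.98), ARSK for SMG6 (0.97), ERCC4 for SMG8 (0.99) and PANK4 for SMG9 (0.88).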

How the data were processed

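The members and gene lists were chosen with earlier results of these data known. The authors deposited counts per gene symbol, made with TopHat2 and htseq-count on hg19 from TruSeq stranded libraries (bcl2fastq 2.0), per the labels. The annotation and strand option are not given in the sources used here. A deposited table of the authors' own IP comparisons (fold changes and p-values) was not used. Counts were tested with edgeR 4.0.16 (filterByExpr, TMM, quasi-likelihood F-test, FDR below 0.05) in R 4.3.3. The 12 RIP libraries shared 1 fit, each CNOT1 effect used its 8 libraries, polysomal contrasts and the interaction used 16 fraction libraries, and TNRC6 used 4. Standard errors follow from the F statistic. Named genes were the 9 members, the targeted genes, pseudogene rows, at most 2 called genes per list and comparison (largest change, mean of at least 1 CPM) and the closest profile per member. Titles number the replicates. Same-numbered RIP libraries deviated together (r = 0.18 to 0.78 in 18 pairs), as did input (0.20 to 0.36) and subpolysomal pairs (0.59 to 0.74), so blocked values stand beside calls they change. No replicates were duplicates (chi-square per gene at least 5.49 in 50 pairs). Alternatives were DESeq2 1.42.0, RLE or total scaling, no filter, other libraries in the fit and leaving out each library. Scripts were tested on simulated data. Sequences came from GRCh37 and GENCODE release 44.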

Additional observations from a re-analysis of the deposited data

Results flagged for a closer look

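Of 54 sets of 4 libraries (9 mRNAs in 6 gradient groups), 2 held a library far from the other 3 by Dixon's test, both in control siRNA input replicate 4, and chance alone gives about 1 in 20. SMG6 was at 47.1 CPM there, beside 51.0 to 51.6 in the other 3 libraries. SMG9 was at 30.9 CPM, beside 37.4 to 38.2, and without that library its rise with CNOT1 siRNA in input RNA was no longer called (log2 0.10, FDR = 0.161).

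The change in polysomal over subpolysomal ratio between CNOT1 and control siRNA was called for SMG9 when the 2 polysomal libraries that go against their labels were left out, at 1.14 on the log2 scale (FDR = 0.0106). With all libraries it was 0.91 (FDR = 0.114).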

How the results depend on the processing

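Over all alternatives no called change of a member reversed its direction. Of the members' log2 changes under alternatives, 1416 kept direction and side of the threshold, 74 lost the call, 40 gained it, and 81 that were not called changed sign. SMG5, SMG8 and UPF3B kept their calls in the eIF4A1 and eIF4A2 IPs, as did SMG5 and SMG8 in the DDX6 IP and SMG1, UPF3B in input RNA, under every alternative run. The numbers of members called moved as follows. The replicate block gave 1 between the eIF4A2 and eIF4A1 IPs instead of 0, 4 and 5 instead of 3 and 4 in the eIF4A1 and DDX6 IPs, 5 instead of 4 in input RNA, and 8 instead of 4 in the subpolysomal pool, and it changed no count beyond these by over 1.5 times. In the polysomal contrasts and the TNRC6 experiment the labels give replicates only a shared number, with r = -0.56 to 0.10 between polysomal pairs. The 2 TNRC6 pairs had r = 0.86, which is 1 value, since with 2 replicates per group both pairs must give the same r. These TNRC6 pairs were too few to take as paired. There the block called 0 members between the siRNAs in the polysomal pool and in the TNRC6 experiment, where 763 genes were called instead of 0, and SMG9 in the control polysomal contrast missed the threshold (FDR = 0.0539). One fit over all 24 gradient libraries gave 2 in input RNA instead of 4 and 2 instead of 0 in the interaction. Library totals gave 1 instead of 4 in the subpolysomal pool and 4 (3 higher, 1 lower) instead of 6 in the CNOT1 siRNA polysomal contrast, and no filter gave 4 (4 higher, 0 lower) instead of 6 in the control polysomal contrast. Leaving out both mismatched libraries gave 4 instead of 0 in the polysomal pool and 1 instead of 0 in the interaction, where DESeq2 also gave 1. Leaving out 1 library at a time gave 3 to 3 members in the eIF4A1 IP, 4 to 5 in the eIF4A2 IP, 3 to 4 in the DDX6 IP and in input RNA, 0 to 1 between the eIF4A2 and DDX6 IPs, 0 to 2 in the subpolysomal pool, 4 to 6 and 5 to 7 in the control and CNOT1 siRNA polysomal contrasts, 0 to 1 in the interaction (1 without control siRNA polysomal replicate 3), and 0 elsewhere. The cause of these differences was not tested. Exon-union lengths moved 72 of 108 levels per kb by more than 1 SD. Over all genes, DESeq2 called 658 instead of 185 between the eIF4A2 and eIF4A1 IPs, 549 instead of 16 between the DDX6 and eIF4A1 IPs, and 579 instead of 157 in the interaction, and the block called 2770, 1705 and 114. The interaction gave 850 with library totals, 949 with 24 libraries and 1586 without the mismatched libraries, and the polysomal comparison 5898 instead of 0. The subpolysomal comparison gave 9432 with the block, 7196 over the gradient libraries without the 2 mismatched ones (added after seeing the data), and 4394 as reported. No filter gave 997, 232, 446 and 23 between the eIF4A2 and eIF4A1 IPs, between the DDX6 and eIF4A1 IPs, in the interaction and with TNRC6A/B siRNA, and the compared libraries alone gave 24 and 0 in the first 2. Between the eIF4A2 and DDX6 IPs the block called 7070 instead of 3685, and in input RNA the fit over 24 libraries called 4859 instead of 9561. Leaving out 1 library gave 46 to 224 genes between the eIF4A2 and eIF4A1 IPs, 0 to 13 between the DDX6 and eIF4A1 IPs, 1487 to 3483 between the eIF4A2 and DDX6 IPs and 29 to 658 in the interaction.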
